A study of Mus musculus with 10 samples.

Results

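The genes described here are 9 mouse genes that mark recently arrived monocytes or belong to the Ly6 family: Ly6a, Ly6c1, Ly6c2, Ly6e, Ly6i, Plac8, Chil3, Vcan and F13a1. They were taken by symbol from the 46957 loci of the deposited tables. Ly6a and Ly6c1 were chosen because their counts are lower after treatment in these same samples, so their difference is given as a description, with no test. The other 7 genes were listed with earlier results of these data known. The question put to them was whether newly arrived monocytes are fewer among the macrophages of treated tumours.

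RNA was sequenced from tumour-associated macrophages of BALB/cJ mice that carried 4T1 tumours, a mouse mammary carcinoma line, in the mammary fat pad. In the vehicle group, 5 samples came from mice given PBS. In the treated group, 5 samples came from mice given JHU083, a prodrug of the glutamine antagonist 6-diazo-5-oxo-L-norleucine, at 1 mg/kg on days 7 to 13. Both groups were harvested on day 14 and sorted as live CD45+ CD11b+ F4/80+ cells that lacked CD8, Ly6C and Ly6G on the surface. No label says whether a sample is 1 mouse or a pool, so the p-values measure the spread between these samples, which may be partly technical. The gate removed cells with surface Ly6C before RNA was made. The counts therefore describe transcripts in sorted Ly6C-negative cells and do not count the monocytes of the tumour.

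Classical monocytes leave the bone marrow with high surface Ly6C and the chemokine receptor CCR2, enter tumours, and lose Ly6C while they gain F4/80 and mature into macrophages. Ly6 proteins are small, mostly GPI-anchored surface proteins held together by disulfide bonds. Several of them, Ly6a and Ly6e among them, are known to respond to interferon. Plac8, Chil3, Vcan and F13a1 are unrelated to the Ly6 family and are used as markers of monocytes and young macrophages because their transcripts are abundant there.

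The 5 Ly6 genes lie within 157 kb of chromosome 15 (GRCm38, GENCODE M21), and all are protein coding. Ly6e is at chr15:74955051-74959905 on the plus strand. The other 4 are on the minus strand within 132 kb, with Ly6i at chr15:74979534-74983430, Ly6a at chr15:74994877-74998031, Ly6c1 at chr15:75044018-75048830 and Ly6c2 at chr15:75108158-75111970. Outside this cluster lie Plac8 at chr5:100553725-100572245, Chil3 at chr3:106147554-106167564, Vcan at chr13:89655312-89742509 and F13a1 at chr13:36867178-37050244, each on the minus strand.

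Ly6c1 and Ly6c2 both encode the Ly6C antigen that the sort used, and their coding sequences are nearly the same. Of 396 coding bases 387 are identical (97.7%), and the longest identical run has 188 bases. The first 120 coding bases are shown because they hold 6 of the 9 bases that differ, which are in capitals.
Ly6c1: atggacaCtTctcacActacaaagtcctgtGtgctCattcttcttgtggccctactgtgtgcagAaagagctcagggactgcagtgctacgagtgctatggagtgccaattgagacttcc
Ly6c2: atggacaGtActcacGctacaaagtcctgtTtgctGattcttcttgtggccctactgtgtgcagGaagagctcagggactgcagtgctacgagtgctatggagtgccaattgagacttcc
A read from the long identical stretch cannot be assigned to either gene by its sequence, so the split between Ly6c1 and Ly6c2 is uncertain, and their sum is given as well. Ly6a and Ly6i share 86.4% of aligned coding bases, and Ly6a shares 83.8% with Ly6c1. Ly6e is the distant member, with 49.9% to 54.1% identity to the other 4.

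Ly6a encodes Sca-1, a surface antigen of haematopoietic progenitors, activated lymphocytes and some endothelial cells. Its normalised count was 6.59, 10.4, 6.79, 8.60 and 8.38 counts per 1000000 fragments (CPM) in vehicle samples 1 to 5. In JHU083 samples 1 to 5 it was 1.09, 0.548, 0.895, 1.68 and 0.589 CPM. All 5 treated samples lay far below every vehicle sample. The means were 8.16 ± 1.56 and 0.961 ± 0.461 CPM (SD, n = 5 each), or 8.49-fold higher in vehicle, and the log2 fold change (JHU083 over vehicle) was -3.09 ± 0.26 (SE). The values rest on 90 to 137 fragments per vehicle library and 8 to 22 per treated library. In these bulk libraries, fewer cells that carry a transcript and less of it per cell cannot be told apart, for Ly6a and for each gene below.

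Ly6c1, which encodes one of the Ly6C proteins of monocytes and is also made by endothelial cells, was low in all samples. Vehicle samples 1 to 5 had 1.63, 2.29, 1.51, 1.74 and 2.51 CPM. JHU083 samples 1 to 5 had 0.477, 0.274, 0.298, 0.459 and 0.131 CPM. The groups again did not overlap, and the treated libraries hold only 2 to 7 Ly6c1 fragments each. The means were 1.93 ± 0.436 and 0.328 ± 0.143 CPM (SD, n = 5 each), a 5.90-fold difference, with a log2 fold change of -2.54 ± 0.33 (SE).

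Ly6c2, the Ly6C gene that monocytes express most, had too few fragments for the test across all loci. Vehicle samples 1 to 5 held 13, 13, 11, 5 and 5 fragments, or 0.883, 0.990, 0.830, 0.434 and 0.391 CPM. JHU083 samples 1 to 5 held 0, 0, 3, 11 and 7 fragments, or 0, 0, 0.224, 0.841 and 0.458 CPM. JHU083 samples 4 and 5 lay within the vehicle range, whereas samples 1 and 2 had none, which at their depth allows up to 0.205 and 0.206 CPM. The difference of the means was -0.40 CPM (exact two-sided permutation test, p = 0.1032, smallest possible 0.0079), so no decrease of Ly6c2 was detected with so few fragments and so wide a spread between treated samples. Without JHU083 sample 4 the difference was -0.54 CPM (exact permutation p = 0.0476).

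The sum of Ly6c1 and Ly6c2, which does not depend on how reads were split between them, averaged 2.64 ± 0.446 CPM without and 0.633 ± 0.391 CPM with JHU083 (SD, n = 5 each). No treated sample reached a vehicle sample, and the log2 fold change was -2.07 ± 0.33 (SE), a description since Ly6c1 chose it. Ly6c2 supplied 27.2% of the summed fragments in vehicle and 47.7% in JHU083. That share was uneven among treated samples, from 0% in samples 1 and 2 to 64.7% in sample 4 and 77.8% in sample 5.

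Ly6i, a Ly6 antigen found on some myeloid cells, was near the detection limit, with at most 9 fragments in any library. It averaged 0.395 ± 0.168 CPM in the vehicle group and 0.200 ± 0.123 CPM after treatment (SD, n = 5 each). The groups overlapped and the difference was -0.20 CPM (exact two-sided permutation test, p = 0.0714). It was -0.12 CPM without vehicle sample 2, and -0.24 CPM without JHU083 sample 4 (exact permutation p = 0.0238).

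Ly6e, an interferon-responsive Ly6 protein known for modulating the entry of several viruses, was the most abundant of the 5 Ly6 genes. It reached 227, 175, 132, 215 and 243 CPM in vehicle samples 1 to 5. The level was 86.7, 53.0, 59.1, 55.0 and 68.0 CPM in JHU083 samples 1 to 5. Every treated sample lay below the lowest vehicle sample. Ly6e fell 3.08-fold, from 199 ± 44.8 to 64.4 ± 13.8 CPM (SD, n = 5 each), with a log2 fold change of -1.62 ± 0.17 (SE) and an adjusted p of 1.15e-05 (edgeR quasi-likelihood test, Benjamini-Hochberg over all tested loci).

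**Figure D1:**
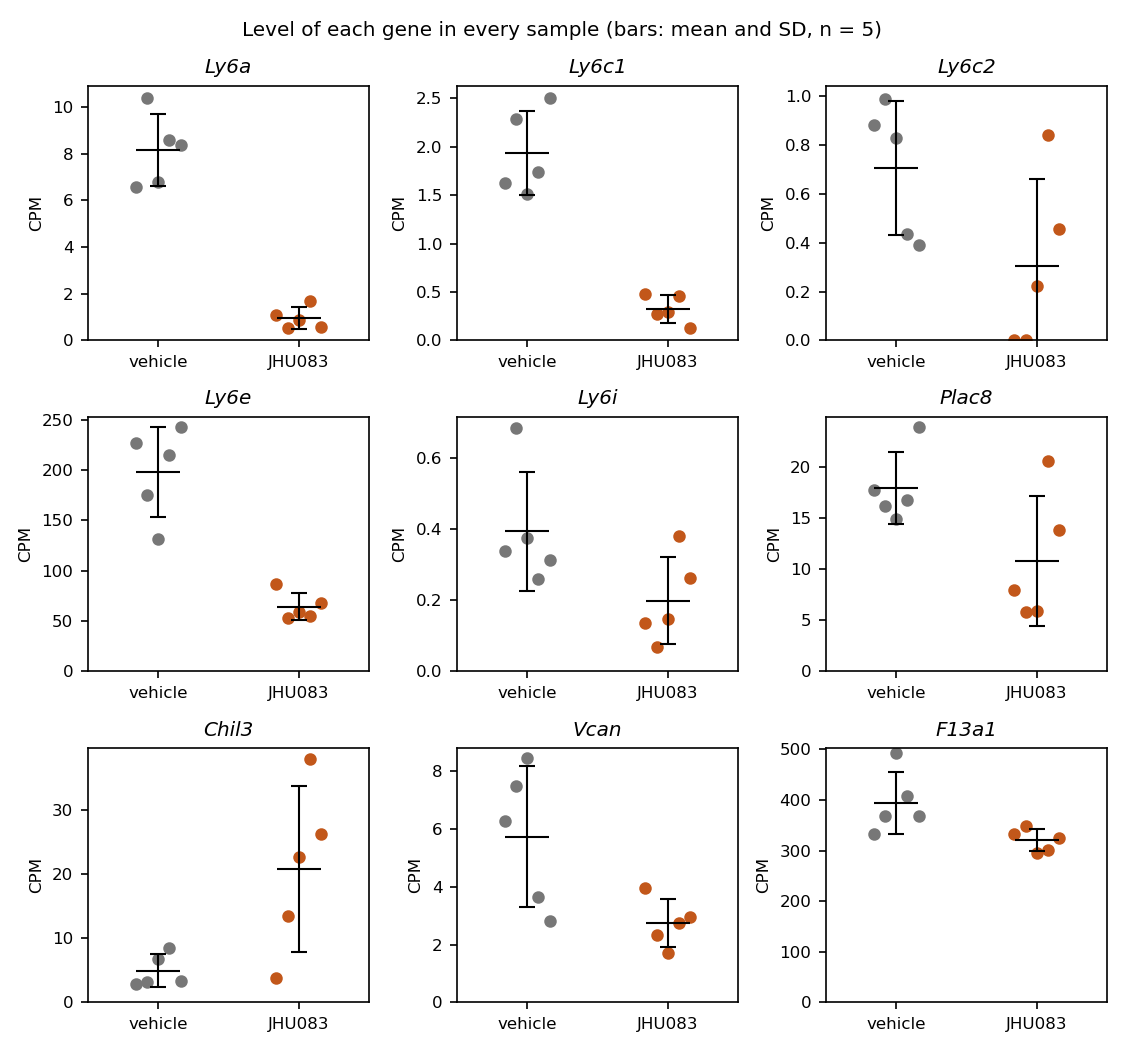
Normalised counts (CPM, linear axis from 0) of the 9 genes, 1 panel each, with 1 point per sample (grey for vehicle, orange for JHU083) and black bars for the mean and SD (n = 5). Ly6a, Ly6c1 and Ly6e separate fully between groups, Chil3 is higher in 4 of 5 treated samples than in any vehicle sample, and the other genes overlap.

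Plac8, a small cysteine-rich protein made by monocytes, neutrophils and several lymphoid cells, did not pass the threshold. Vehicle samples 1 to 5 had 17.7, 16.2, 14.9, 16.8 and 23.9 CPM. JHU083 samples 1 to 5 had 7.98, 5.83, 5.89, 20.6 and 13.8 CPM. JHU083 sample 4 stood among the vehicle samples, and the other 4 treated samples lay below all of them. The log2 fold change was -0.73 ± 0.29 (SE; edgeR adjusted p = 0.0664). The treated samples varied more, with a coefficient of variation of 58.7% against 19.6% in vehicle. Without JHU083 sample 4 the log2 fold change was -1.09 and passed the threshold (edgeR adjusted p = 0.00446). With all 10 libraries it also passed under library-size scaling (edgeR adjusted p = 0.0434), limma-voom (adjusted p = 0.0230) and no filter on low counts (edgeR adjusted p = 0.00234), and not under DESeq2 (adjusted p = 0.126). The call thus depends on that library and on the scaling, the test and the filter.

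Chil3, also called Ym1, is a secreted chitinase-like lectin made by marrow monocytes, neutrophils and macrophages exposed to interleukin 4. It moved in the opposite direction. Its counts were 2.85, 3.20, 6.79, 8.52 and 3.37 CPM in vehicle samples 1 to 5. After JHU083 they were 3.82, 13.4, 22.6, 37.8 and 26.2 CPM in samples 1 to 5. Treated sample 1 fell inside the vehicle range and the other 4 lay above it. Chil3 rose 4.20-fold, from 4.94 ± 2.55 to 20.8 ± 12.9 CPM (SD, n = 5 each), with a log2 fold change of 2.08 ± 0.47 (SE; edgeR adjusted p = 0.00374). Its near copy Chil4, with 95.3% identical coding bases, had no fragment in any vehicle library and at most 2 in a treated one.

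Vcan encodes versican, a chondroitin sulfate proteoglycan that monocytes make in large amounts and macrophages less so. Vehicle samples 1 to 5 had 6.25, 7.47, 8.45, 3.65 and 2.82 CPM. JHU083 samples 1 to 5 had 3.96, 2.33, 1.71, 2.75 and 2.95 CPM. Vehicle samples 4 and 5 sat at the level of the treated samples, so the groups overlapped. Vcan fell from 5.73 ± 2.42 to 2.74 ± 0.827 CPM (SD, n = 5 each), with a log2 fold change of -1.06 ± 0.30 (SE; edgeR adjusted p = 0.0129).

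F13a1 encodes the catalytic A subunit of coagulation factor XIII, a transglutaminase that cross-links fibrin and is made by monocytes and resident-like macrophages. In the vehicle group, samples 1 to 5 had 333, 369, 493, 407 and 369 CPM. In the JHU083 group, samples 1 to 5 had 332, 349, 296, 301 and 325 CPM. The change was small: 4 of 5 treated samples lay below all vehicle samples, and the other lay between vehicle samples 1 and 2. F13a1 fell from 394 ± 60.9 to 321 ± 22.0 CPM (SD, n = 5 each), with a log2 fold change of -0.30 ± 0.10 (SE; edgeR adjusted p = 0.0268). The call was lost without vehicle sample 3 (-0.21, edgeR adjusted p = 0.0571), without vehicle sample 4 (-0.29, edgeR adjusted p = 0.0565) and without JHU083 sample 4 (-0.28, edgeR adjusted p = 0.0661).

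Of the 5 tested genes that were not chosen for a fall, Ly6e, Vcan and F13a1 fell, Chil3 rose and Plac8 did not pass the threshold. Over all 12500 loci tested, 36.7% passed, with 18.4% higher and 18.3% lower in JHU083. Since the genes were chosen on this contrast, nothing is read from their count against that share. Scaling by library size alone shifted the median of all loci by -0.08 and gave 1564 higher and 3141 lower loci in place of 2296 and 2293. The directions of the 7 tested genes were kept under that scaling.

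Between genes, levels can be compared only per length, for which the second deposited column was used. No header names its unit. Its values were taken as FPKM from their relation to the counts. On that scale Ly6e (236 ± 49.3 FPKM) and F13a1 (98.7 ± 15.5) led in vehicle, followed by Plac8 (31.1 ± 6.02) and Ly6a (11.9 ± 2.53; SD, n = 5). Chil3 (3.43 ± 1.77 FPKM) and Ly6c1 (3.16 ± 0.478) were next and did not differ beyond their spread. Vcan (1.29 ± 0.758 FPKM), Ly6c2 (1.27 ± 0.769) and Ly6i (0.902 ± 0.387) were lowest and overlapped.

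After JHU083 the order changed. F13a1 (80.6 ± 5.96 FPKM) and Ly6e (78.8 ± 18.0) stood level at the top, and Plac8 (18.9 ± 11.0) and Chil3 (14.4 ± 8.93) overlapped below them (SD, n = 5). Ly6a (1.43 ± 0.699 FPKM) came next. Vcan (0.724 ± 0.325 FPKM), Ly6c1 (0.593 ± 0.248), Ly6c2 (0.572 ± 0.789) and Ly6i (0.422 ± 0.309) could not be separated from each other. Chil3 thus moved from a level near Ly6c1 to one near Plac8, while Ly6a moved towards the bottom group.

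**Figure D2:**
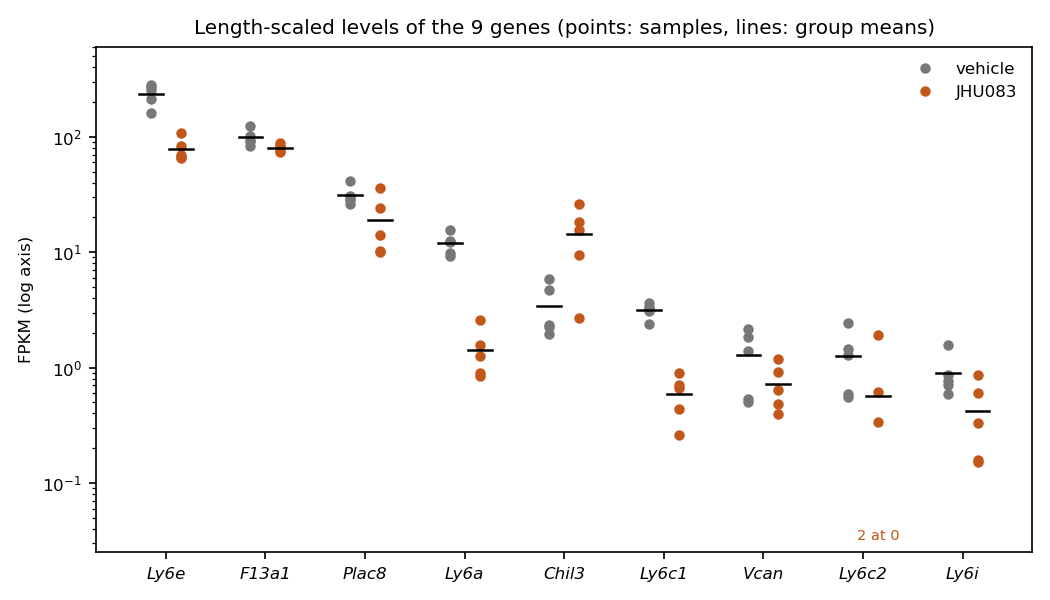
Level per length (FPKM, log axis) of the 9 genes in each sample, ordered by the vehicle mean, with grey points for vehicle, orange points for JHU083 and lines at the group means; samples at 0 are written as a number. Ly6e and F13a1 lead in both groups, and Ly6c2 and Ly6i are among the lowest.

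The libraries also differ in whether 2 ribosomal-RNA-like loci, Rn18s-rs5 and Gm42418, are listed at 0. They are at 0 in 3 vehicle and 2 JHU083 samples and above 0 in 2 and 3, which the labels do not describe. Within the samples at 0 and within the samples above 0, the log2 fold change was -3.18 and -2.86 for Ly6a, -2.45 and -2.45 for Ly6c1, and -1.53 and -1.62 for Ly6e. These 3 genes differed by about the same amount on either side. Their groups do not overlap over all samples, and Ly6a and Ly6c1 were chosen on those samples. A fall on either side was thus fixed in advance, and only its size is described. Plac8 gave -1.44 ± 0.23 among samples at 0 and -0.30 ± 0.36 above 0 (SE), and the first passed the threshold (edgeR adjusted p = 0.00857). Chil3 gave 1.40 ± 0.64 and 2.42 ± 0.43, and Vcan gave -0.71 ± 0.49 and -1.46 ± 0.26 (SE). Among the samples at 0 neither passed the threshold, with edgeR adjusted p-values of 0.209 for Chil3 and 0.414 for Vcan. F13a1 gave -0.28 and -0.36 and passed in neither set. Whether the 2 sets differ was not tested.

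Among themselves the genes did not vary as 1 block. After each group's mean was subtracted, log2 CPM of Ly6a and Ly6c1 correlated with r = 0.78 over the 10 samples, whereas Ly6a and Ly6e gave 0.08, Ly6a and Plac8 0.47, and Ly6e and Chil3 -0.56. These r are descriptions, since the samples share depth and scaling and Ly6a and Ly6c1 share sequence. By the same measure, the loci most like Ly6a were Csrnp1 (0.90), Uros (0.89) and Srp54b (0.88). Ly6e was most like Arhgef1 (0.95), the locus of Tapbp and Zbtb22 (0.94), and Ms4a4c (0.91). Plac8 was most like Erc1 (0.90), Arl8b (0.89) and Gtpbp4 (0.88). Chil3 was most like Pecam1 (0.96) and F7 (0.95). Vcan was most like Slc39a14 (0.92), Mex3c (0.91) and Sipa1l1 (0.91), and F13a1 was most like 1600020E01Rik, Gltscr1 and Hdlbp (0.96 each). Each of these loci is the top of 10035 candidates over 10 samples, so its r is high by selection.

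The other Ly6 family genes mostly had low counts, and 4 of the 28 found had enough fragments to be tested. Ly6g6e rose from 1.19 ± 0.386 to 3.22 ± 0.237 CPM (log2 fold change 1.44, edgeR adjusted p = 2.97e-04). Cd59a, which encodes an inhibitor of the complement membrane attack complex, rose from 2.44 ± 0.470 to 4.22 ± 0.966 CPM (0.79, edgeR adjusted p = 0.0106). Lypd3, an epithelial adhesion protein, fell from 3.03 ± 1.42 to 0.469 ± 0.395 CPM (-2.65, edgeR adjusted p = 0.00115). The urokinase receptor gene Plaur did not pass (0.14, edgeR adjusted p = 0.328). The tested family members outside the chromosome 15 list thus moved both ways. With DESeq2, or with no filter on low counts, 2 of the list were called lower in place of 1.

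A list of 22 other genes of classical monocytes gave a split result: 7 rose, 7 fell and 8 did not pass. Over all tested loci 18.4% rose and 18.3% fell. The list's median log2 fold change was -0.10, against 0.01 over all tested loci. The monocyte receptor gene Ccr2 was at 332 ± 32.5 CPM without and 366 ± 104 CPM with treatment (SD, n = 5 each; log2 fold change 0.14 ± 0.16, edgeR adjusted p = 0.508). Hp, the haptoglobin gene, was at 9.17 ± 1.79 and 10.4 ± 3.36 CPM (edgeR adjusted p = 0.549). Neither direction was detected for these 2, which were named after their values were seen.

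Among the classical monocyte genes that rose, the glutathione transferase Mgst1 went from 19.3 ± 3.48 to 60.4 ± 11.2 CPM (log2 fold change 1.65, edgeR adjusted p = 4.09e-06). The lysozyme gene Lyz1 rose from 2.97 ± 1.02 to 8.26 ± 3.10 CPM (1.47, edgeR adjusted p = 0.00121). Thbs1, which encodes the matrix protein thrombospondin-1, rose from 90.7 ± 16.7 to 201 ± 64.7 CPM (1.15, edgeR adjusted p = 2.91e-04). Among those that fell, Ms4a4c went from 83.2 ± 13.4 to 29.8 ± 5.50 CPM (-1.48, edgeR adjusted p = 4.96e-06). The orphan receptor gene Gpr141 fell from 23.2 ± 1.18 to 8.66 ± 2.84 CPM (-1.42, edgeR adjusted p = 6.12e-05). The calcium-binding protein gene S100a6 fell from 83.8 ± 22.0 to 33.4 ± 6.37 CPM (-1.33, edgeR adjusted p = 9.18e-05).

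Nonclassical monocytes are the Ly6C-low patrolling cells that depend on the nuclear receptor Nr4a1. Of 11 tested genes in their list, 3 rose, 3 fell and 5 did not pass (all tested loci: 18.4% rose, 18.3% fell). The median was 0.00. Cx3cr1, their fractalkine receptor, rose from 335 ± 24.1 to 540 ± 122 CPM (log2 fold change 0.69, edgeR adjusted p = 8.53e-04), and Nr4a1 rose from 606 ± 27.5 to 873 ± 116 CPM (0.53, edgeR adjusted p = 5.11e-04). Adgre4 rose from 1.82 ± 0.392 to 2.98 ± 0.811 CPM (0.70, edgeR adjusted p = 0.0359), a call lost in 11 of 16 alternatives. Ace, angiotensin-converting enzyme, fell from 20.8 ± 9.48 to 3.52 ± 1.42 CPM (-2.56, edgeR adjusted p = 8.54e-05). Eno3 fell from 18.1 ± 1.55 to 8.85 ± 0.563 CPM (-1.04, edgeR adjusted p = 6.91e-06), and the integrin gene Itgal fell from 244 ± 9.49 to 181 ± 24.4 CPM (-0.43, edgeR adjusted p = 0.00177).

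Among genes of mature macrophages, 15 of 25 rose and none fell (all tested loci: 18.4% rose, 18.3% fell), and the median was 0.42. Under library-size scaling, and without JHU083 sample 1, 1 gene of the list was called lower. Gpnmb, a lysosomal glycoprotein, rose from 2.96 ± 0.420 to 8.66 ± 2.05 CPM (log2 fold change 1.55, edgeR adjusted p = 3.78e-05). Mertk, a receptor for the uptake of dying cells, rose from 81.0 ± 6.08 to 159 ± 17.9 CPM (0.97, edgeR adjusted p = 4.81e-06). Apoe, apolipoprotein E, rose from 21463 ± 2754 to 38244 ± 6585 CPM (0.83, edgeR adjusted p = 8.52e-04).

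The interferon response list, relevant because Ly6a and Ly6e are interferon-responsive, went the other way. Of its 23 genes 19 fell, none rose and 4 did not pass (all tested loci: 18.4% rose, 18.3% fell). All 23 had a log2 fold change below 0 (median -0.60). The chemokine genes Cxcl10 and Cxcl9, which attract T cells, fell from 41.1 ± 8.31 to 11.9 ± 4.14 CPM (-1.79, edgeR adjusted p = 2.78e-05) and from 101 ± 16.9 to 32.3 ± 18.7 CPM (-1.64, edgeR adjusted p = 9.32e-04). Isg15, a ubiquitin-like modifier, fell from 73.5 ± 14.1 to 31.1 ± 4.51 CPM (-1.24, edgeR adjusted p = 1.60e-05). Ly6e's log2 fold change of -1.62 lies between those of Cxcl9 and Isg15. Whether the lower levels of Ly6a, Ly6c1 and Ly6e depend on interferon signalling was not tested.

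The list of interleukin 4 and chitinase-like genes holds those usually measured with Chil3. Of 9 tested genes 3 rose, 1 fell and 5 did not pass (all tested loci: 18.4% rose, 18.3% fell), with a median of 0.26. Retnla, a secreted product of macrophages exposed to interleukin 4, rose from 4.19 ± 0.945 to 31.0 ± 11.6 CPM (log2 fold change 2.90, edgeR adjusted p = 7.52e-06). The ribonuclease gene Ear2 rose from 3.51 ± 0.886 to 17.2 ± 5.34 CPM (2.30, edgeR adjusted p = 1.19e-05), and the chemokine gene Ccl17 rose from 3.95 ± 0.980 to 13.8 ± 10.5 CPM (1.79, edgeR adjusted p = 0.00436). Chil1 fell from 1.52 ± 0.181 to 0.858 ± 0.356 CPM (-0.82, edgeR adjusted p = 0.0431), a call lost in 11 of 16 alternatives.

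The matrix and coagulation list accompanies Vcan and F13a1. Of 14 tested genes 1 rose, 5 fell and 8 did not pass (all tested loci: 18.4% rose, 18.3% fell), with a median of -0.36. Without JHU083 sample 1, 3 rose. Hspg2, perlecan, fell from 42.7 ± 20.0 to 8.68 ± 4.10 CPM (-2.29, edgeR adjusted p = 3.47e-04). Has2, a hyaluronan synthase, fell from 9.63 ± 5.45 to 2.08 ± 0.635 CPM (-2.20, edgeR adjusted p = 7.37e-04). Adamts4, a protease that cleaves versican and aggrecan, fell from 2.45 ± 1.04 to 0.696 ± 0.302 CPM (-1.81, edgeR adjusted p = 0.00188). Fibroblast markers (6 of 8 lower) and tumour epithelial markers (8 of 8 lower) fell in the same samples, and their part in these falls was not tested.

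**Figure D3:**
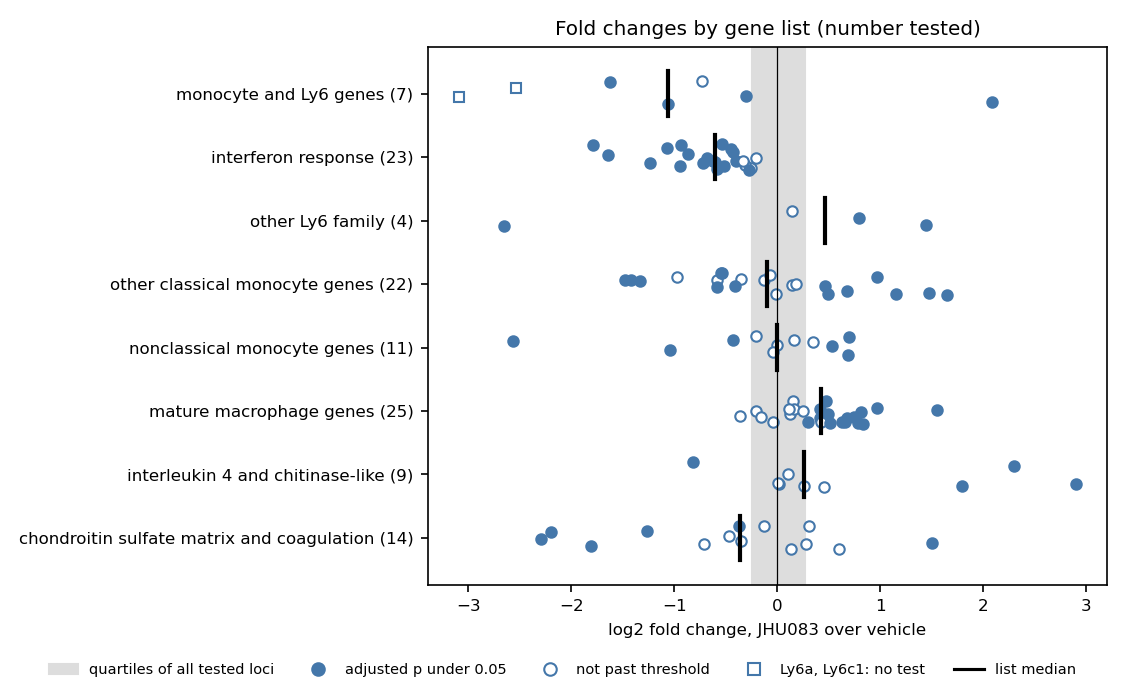
Log2 fold change (JHU083 over vehicle) of each tested gene by list, with filled points past the threshold, squares for Ly6a and Ly6c1 (no test), a bar at each list's median and a grey band for the quartiles of all tested loci, -0.25 and 0.27. The interferon response genes all lie below 0, mature macrophage genes lie mostly above 0, and the classical monocyte genes spread over both sides.

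Markers of the sort were in place. Ptprc (CD45) was at 464 ± 64.5 and 573 ± 107 CPM (edgeR adjusted p = 0.0816), and the locus of Itgam (CD11b) differed by 0.03 on the log2 scale (edgeR adjusted p = 0.774). Adgre1, which encodes F4/80, rose from 595 ± 39.3 to 922 ± 39.3 CPM (log2 fold change 0.63, edgeR adjusted p = 2.18e-05). Cd8a had at most 6 fragments and Ly6g at most 2 in any library.

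Other cell types also make some of these transcripts, so their marker sums are given here. The sum over 8 endothelial markers was 134 to 220 CPM in vehicle and 44.6 to 97.0 CPM in JHU083, without overlap. Most of it was Pecam1, which macrophages also express and which fell from 151 ± 32.5 to 52.5 ± 20.2 CPM (edgeR adjusted p = 3.50e-04). Among the stricter endothelial genes, Cdh5 and Kdr did not pass (edgeR adjusted p = 0.176 and 0.362), Tie1 rose (log2 fold change 0.56, edgeR adjusted p = 0.00425), and Tek and Emcn had under 10 fragments in each sample. Of 10 markers of T and NK cells, another source of Ly6a, Ly6c2 and Plac8, 4 were tested and 2 of these rose. Cd3d, Cd8a, Nkg7 and Ncr1 had under 10 fragments in each sample. The sum over the 10 was 40.2 to 44.9 CPM in vehicle and higher, 52.9 to 88.9 CPM, in JHU083, with JHU083 samples 4 and 5 highest. The same 2 treated samples had the most Ly6c2 and Plac8, and also the highest endothelial sums (92.7 and 97.0 CPM) and dendritic sums (33.1 and 23.9 CPM) of their group. T, NK and endothelial cells mostly fall outside a gate for CD11b and F4/80, and so do tumour epithelial cells. Tumour epithelial markers still summed to 297 to 649 CPM in vehicle and 104 to 219 CPM in JHU083. The part of these cells in the results was not tested.

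The sum over 11 neutrophil markers was 342 to 751 CPM in vehicle and 174 to 349 CPM in JHU083, and 3 of 7 tested markers fell and 1 rose. Between groups this is the opposite direction to Chil3, but within groups the samples with the highest sums, vehicle 3 and 4 and JHU083 3, 4 and 5, were also those with the most Chil3. The part of neutrophils in the Chil3 result was not tested. The sum over 8 fibroblast markers was 107 to 231 and 28.5 to 118 CPM, with 6 of 8 lower. Tumour epithelial markers were 297 to 649 and 104 to 219 CPM, with all 8 lower and no overlap. Macrophage markers summed to 4136 to 4549 CPM in vehicle and 5443 to 6059 CPM in JHU083, without overlap. Progenitor markers were 6.65 to 11.0 and 9.50 to 16.9 CPM, eosinophil markers 3.68 to 10.6 and 6.64 to 17.4 CPM with Prg3 at 0, dendritic markers 12.4 to 17.1 and 16.2 to 33.1 CPM, and B and plasma cell markers 3.04 to 4.07 and 3.47 to 5.20 CPM. The tumour epithelial, fibroblast, endothelial and neutrophil sums thus had lower ranges in JHU083, as had Ly6a, Ly6c1, Ly6e and Vcan, and their part in those results was not tested.

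**Figure D4:**
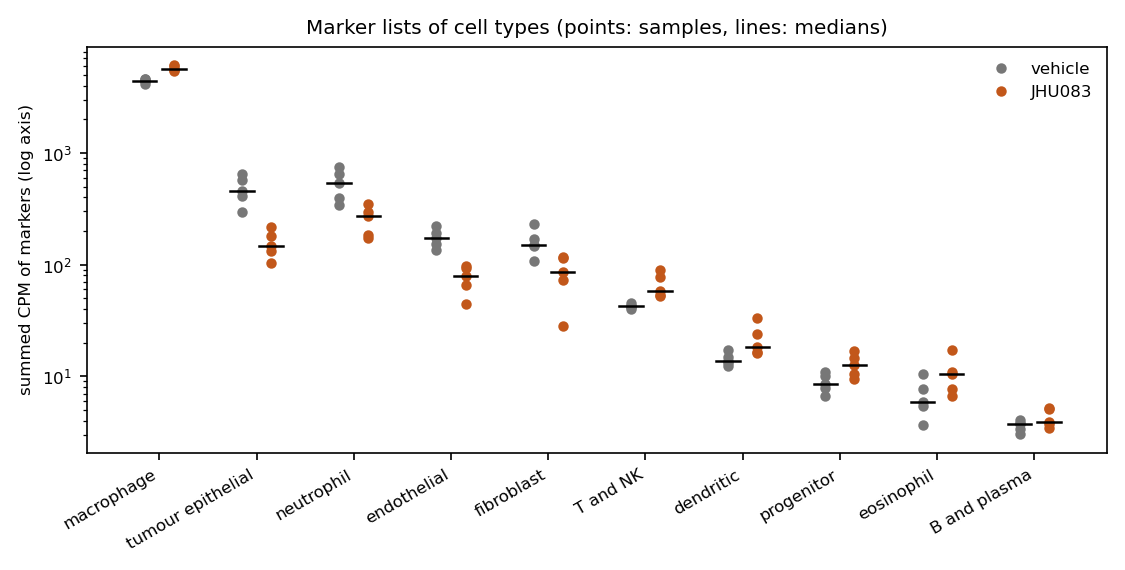
Summed CPM (log axis) of each marker list per sample, with grey points for vehicle, orange points for JHU083 and lines at the group medians. Tumour epithelial and endothelial sums lie lower in every treated sample, and macrophage and T and NK sums lie higher.

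Promoters were read from RefSeq (GRCm38.p6), where 6 of the 9 genes matched: Ly6c1, Ly6c2, Plac8, Chil3, Vcan and F13a1. Windows of 300 bases, from 250 before to 50 after the start, were searched on both strands for an interferon-stimulated response element core (GAAA, any 2 bases, GAAA), a gamma-activated site (TTCNNNGAA), a PU.1 core (GAGGAA) and a C/EBP motif (TTGCNNAA). PU.1 and C/EBP factors are the regulators of monocyte development. The interferon-stimulated core was in none of the 6 first-listed promoters and in 3.49% of all promoters. Ly6a, Ly6e and Ly6i had no promoter entry, so the search says nothing about these genes. The gamma-activated site was in Chil3 only (8.47% of all promoters), and the PU.1 core was in Ly6c1, Ly6c2, Plac8 and F13a1 (28.3%). The C/EBP motif was in none of the 6 first-listed promoters (10.8%) and once in a second promoter listed for Plac8. The 200 bases before the start are shown for Ly6c1, Plac8 and Chil3, which differ in direction or in spread, with motif matches in capitals, each on the minus strand. They are chr15:75048838-75049037, chr5:100572206-100572405 and chr3:106167565-106167764.
Ly6c1: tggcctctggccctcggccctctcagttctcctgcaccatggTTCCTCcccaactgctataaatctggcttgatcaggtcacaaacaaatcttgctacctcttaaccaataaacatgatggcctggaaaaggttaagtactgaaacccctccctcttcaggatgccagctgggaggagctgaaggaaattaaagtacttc
Plac8: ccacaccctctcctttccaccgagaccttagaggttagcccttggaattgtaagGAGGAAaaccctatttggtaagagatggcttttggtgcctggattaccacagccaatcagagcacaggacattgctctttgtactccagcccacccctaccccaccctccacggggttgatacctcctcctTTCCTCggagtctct
Chil3: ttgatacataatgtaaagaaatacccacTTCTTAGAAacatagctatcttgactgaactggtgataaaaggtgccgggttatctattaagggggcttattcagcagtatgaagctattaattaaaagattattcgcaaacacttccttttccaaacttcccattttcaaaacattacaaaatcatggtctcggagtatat
A match describes letters in this window and is not evidence of a bound factor.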

How the data were processed

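The members and gene lists were chosen with earlier results of these data known. Polyadenylated RNA was made into randomly primed libraries, per the labels' protocols. The submitters' processing notes name bcl2fastq 2.17.1.14, FastQC 0.11.2, TopHat2 2.1.1 and GRCm38, and the program that made the tables and its annotation are not given in the sources used here. The deposited column that the file headers call raw counts holds values that are not whole and was handled under the unit expected counts. The deposited normalized column was read as FPKM, a unit inferred from its values. In each sample these are whole counts scaled by 1 step (0.888 to 1.170). Dividing by it gave whole fragments (within 0.02) for 99.2% to 99.4% of positive values, and these, rounded, were tested. Totals were 11147870 to 15740701 fragments per sample. Counting is not known to use strand. The 1 row without a symbol held 0.00% of fragments and was left out. Loci that list several symbols number 1060 and hold 12.7% of fragments.

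The main test was edgeR 4.0.16 (R 4.3.3) with TMM scaling, filterByExpr at a minimum count of 10 and the quasi-likelihood test, with an adjusted p under 0.05 as the threshold. CPM used TMM-scaled totals. Means were compared for genes under the filter by exact permutation. Named genes were the 9 members, the 3 largest rises and falls past the threshold in each list, the sort markers and the 3 loci most like 6 of the members (mean log2 CPM of at least 2). Some genes that this rule names are not reported here. Ccr2, Hp, Plaur, Chil4 and the endothelial markers were named after their values were seen. Alternatives were library-size scaling, DESeq2 1.42.0, limma-voom 3.58.1, no filter, a replicate block, the deposited values rounded, the ribosomal-RNA-like loci left out, samples split by those loci, and each sample left out. On simulated data over 12500 loci, 200 were changed by 1 on the log2 scale between the 5 JHU083 and 5 vehicle samples. The test recovered 90.0% of these, with 4.76% false calls. In the data 36.7% of tested loci passed, so these rates may not hold for this contrast or for genes with few fragments. Likeness was planned between proteins and was computed between coding sequences (GENCODE M21).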

Additional observations from a re-analysis of the deposited data

Results flagged for a closer look

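In 5 of 114 groups of 5 samples, 1 sample stood apart, by a gap over the group's range above 0.71, where chance gives 5.70. Ly6i in vehicle had a ratio of 0.73, with sample 2 at 0.686 CPM and the others at 0.261 to 0.377. On the log2 CPM scale, Ly6g6e in JHU083 had 0.73, with sample 2 at 1.92 and the others at 1.68 to 1.75. Cd59a in JHU083 had 0.73, with sample 1 at 1.45 and the others at 2.11 to 2.36. Retnla in vehicle had 0.88, with sample 1 at 1.41 and the others at 2.19 to 2.30. Has2 in JHU083 had 0.85, with sample 3 at 0.158 and the others at 1.21 to 1.39.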

How the results depend on the processing

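Of 206 alternative values for the 9 genes, the Ly6c1 and Ly6c2 sum and the counts of loci, none reversed. The counts of loci stayed within 1.5 times the main counts. Ly6a, Ly6c1 and the sum carry no test. Among the other genes 8 values lost a call and 9 gained one. Plac8 gained a call under library-size scaling (-0.81), limma-voom (-0.89), no filter (-0.73) and among samples with the ribosomal-RNA-like loci at 0 (-1.44), where Chil3 (1.40), Vcan (-0.71) and F13a1 (-0.28) lost theirs. F13a1 also lost it among the samples above 0 (-0.36). The samples split this way are fewer. Ly6i gained one with totals that were not TMM-scaled (-0.22 CPM). With 1 sample left out, the log2 fold change ranged from -1.09 to -0.57 for Plac8 and -0.35 to -0.21 for F13a1, and the difference from -0.54 to -0.33 CPM for Ly6c2 and -0.24 to -0.12 CPM for Ly6i. Ly6c2 and Ly6i then passed only without JHU083 sample 4 (exact permutation p = 0.0476 and 0.0238). Of 832 values for other named genes and list counts, 787 stayed the same (counts within 1.5 times), 16 counts moved further, 22 values lost a call, all of Adgre4 or Chil1, 4 gained one and 3, none of them called, reversed: Itgam under library-size scaling (-0.05), Ccr2 without JHU083 sample 1 (-0.01, range to 0.24) and Retnlg without JHU083 sample 4 (-0.31, range to 0.74). Where a cause is not stated, the cause was not tested.

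Same-numbered samples deviated together in no pair above r = 0.09 (lowest -0.57). These r cannot exclude that the numbers are a pairing, which the main test does not use. A replicate block gave 1612 higher and 1757 lower loci, with Plac8 at -0.87 (edgeR adjusted p = 0.0200) and F13a1 at -0.29 (edgeR adjusted p = 0.0787). Depth limits Ly6c2 and Ly6i, with at most 13 and 9 fragments.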
